A study of Mus musculus with 9 samples.

Results

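The RAS, RAF, MEK and ERK genes described here were 7 genes of the MAP kinase cascade, taken by symbol from the 22972 gene names listed for each library. They were the RAS gene Hras, the RAF gene Araf, the MEK genes Map2k1 and Map2k2, the ERK gene Mapk3, and the genes of the RAS GTPase-activating proteins Rasa1 and Rasa2. All 7 were listed in each of 9 RNA sequencing libraries and had a mean of at least 1 FPKM, the minimum for testing. FPKM counts the fragments of a gene relative to its length and to all fragments mapped in the library, so that levels of different genes can be set side by side. Nras and Braf, the melanoma oncogenes of the same families, were measured beside them, together with Nf1.

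In this cascade, growth factor receptors load the small GTPase RAS with GTP through exchange factors such as SOS. RAS bound to GTP recruits the RAF kinases to the membrane, RAF phosphorylates MEK, and MEK phosphorylates ERK, which then acts on cytoplasmic and nuclear targets. RASA1, RASA2 and neurofibromin switch RAS off by speeding up GTP hydrolysis. In human melanoma the cascade is often activated by mutation of BRAF or NRAS or by loss of NF1, whereas RNA levels, as measured here, say nothing about GTP loading or phosphorylation.

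The cells were B16, a mouse melanoma line labelled as wild type, grown on flexible PDMS film in DMEM with serum and collected on day 3. Control cells that were not strained gave 3 libraries (CTL), cyclic straining over 72 h gave another 3 (MS), and the last 3 came from a treatment of 72 h with 100 ng/mL of blebbistatin, which inhibits myosin (MS + Blebb.). For this last group the labels give blebbistatin only, whereas the study names straining together with blebbistatin, and the name of the study is used. One line was used, and the labels number the libraries as parallel experiments without saying whether they were separate cultures, so that p-values measure the spread between these libraries, which may be technical.

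All 7 melanocyte lineage markers (Pmel, Mlana, Tyr, Tyrp1, Dct, Mitf and Sox10) were at 8.51 FPKM or more in each library. The summed level of 6 fibroblast markers was between 0.184 and 0.567 FPKM, with Dcn and Lum at 0, that of 6 keratinocyte markers was at most 0.0314 FPKM, and that of 6 macrophage markers was between 2.10 and 4.32 FPKM, mostly from Cd68, with Ptprc and C1qa at 0. A group of 3 libraries stood apart from the rest, namely MS replicate 3, CTL replicate 1 and MS + Blebb. replicate 2. They were those with a negative first principal component, the main axis of spread over genes, after removal of the GC trend. Ddit3 set the direction of this axis. On the deposited values MS + Blebb. replicate 1 was negative as well, at -7.29 beside -10.0 for MS replicate 3. The summed level of 5 stress response genes (Atf4, Ddit3, Chac1, Trib3 and Asns) was 763, 985 and 1011 FPKM in the 3 libraries that stood apart and between 317 and 475 FPKM in the other 6. The libraries also differed in how FPKM depended on the GC content of a transcript. Across genes, which are not independent replicates, Pearson's r between GC content and the deviations within 1 library from each gene's mean lay between -0.650 in MS replicate 1 and 0.561 in MS + Blebb. replicate 1. The part of either pattern in the values of the 7 genes was not tested beyond the values given beside them.

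The reads of paralogs can only be told apart where their transcripts differ, so the longest run shared by the reference transcripts (GENCODE M21) of the MEK genes is shown. It held 56 bases and lay in the coding sequence of both genes, whereas the longest run of Araf and Braf held 17 bases and that of Rasa1 and Rasa2 12. Capitals are not used in this run, since each base is shared.
Map2k1 and Map2k2: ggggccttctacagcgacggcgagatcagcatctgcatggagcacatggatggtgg
Of all windows of 50 bases in the Map2k1 transcript, 0.293% were also found in Map2k2, and 0.297% of those of Map2k2 were found in Map2k1. Mapk3 shared 1 such window, with the processed pseudogene Gm15546, and Hras, Araf, Rasa1 and Rasa2 shared none with transcripts of other genes. 
The genes lie on 5 chromosomes of the GRCm38 assembly. Hras is at chr7:141189105-141194005 on the minus strand and Mapk3 at chr7:126759601-126765819 on the plus strand of the same chromosome. Araf is at chrX:20797814-20860519 (plus), Map2k1 at chr9:64185770-64253631 (minus), Map2k2 at chr10:81105915-81133975 (plus), Rasa1 at chr13:85214780-85289130 (minus) and Rasa2 at chr9:96539300-96631617 (minus). FPKM values cover the exons of a gene. On the opposite strand, 9 exonic bases of Araf overlapped Syn1 and 12 of Rasa1 overlapped Ccnh, while the transcripts of the other 5 genes overlapped no exon of another gene. Whether the fragments were counted by strand is not given in the sources used here.

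The MEK and ERK genes were the most abundant of the 7 and the GTPase-activating proteins the least. Over the 9 libraries, Map2k2 was expressed at 124 ± 13.4 FPKM (SD, n = 9) and Mapk3 at 120 ± 24.0 FPKM, levels that did not differ beyond their spread, since Map2k2 was the higher of the pair in 6 of 9 libraries. Map2k1 followed at 50.2 ± 4.89 FPKM and was below Mapk3 in 9 of 9 libraries. Hras was at 38.5 ± 4.14 FPKM and Araf at 34.7 ± 3.62 FPKM. Map2k1 was above Hras in 8 of 9 libraries, the exception being MS + Blebb. replicate 1, whereas Hras was above Araf in 6 of 9 libraries, so that these neighbours did not differ beyond their spread. Rasa1, at 2.63 ± 1.57 FPKM, and Rasa2, at 1.11 ± 0.542 FPKM, were far below the kinases, and Rasa1 was above Rasa2 in 9 of 9 libraries.

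**Figure D1:**
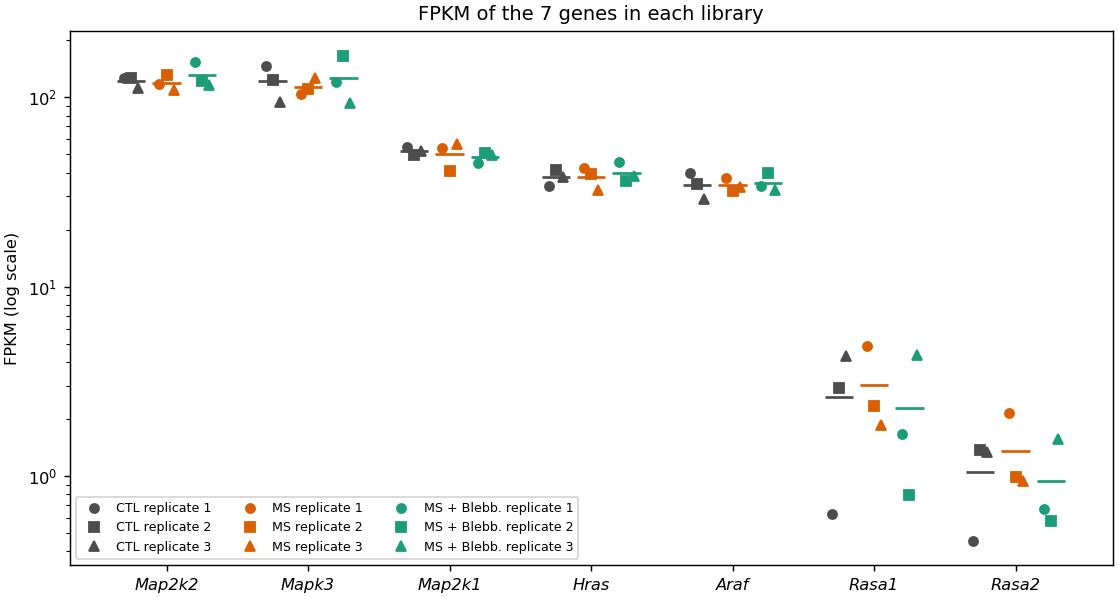
FPKM of the 7 genes (log scale) in each library, with a colour for each group, a symbol for each replicate and a horizontal line for the group mean (n = 3). Map2k2 and Mapk3 lie at the top near 120 FPKM, the 3 groups overlap for each gene, and Rasa1 and Rasa2 spread most between libraries of the same group.

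Hras, which encodes the H-RAS GTPase, was measured at 34.1, 41.2 and 37.8 FPKM in CTL replicates 1, 2 and 3, at 42.1, 39.4 and 32.3 FPKM in MS, and at 45.6, 36.0 and 38.3 FPKM in MS + Blebb. The 3 groups overlapped, with the lowest level in MS replicate 3 and the highest in MS + Blebb. replicate 1, a ratio of 1.41. The log2 fold change was 0.0041 in MS versus CTL, with a standard error of 0.15, and 0.077 in MS + Blebb. versus MS (adjusted p = 1.00 and 0.920, limma with Benjamini-Hochberg adjustment over 10109 genes).

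Araf, the gene of the A-RAF kinase, was at 39.9, 34.7 and 29.1 FPKM in the CTL libraries, 37.3, 31.8 and 33.7 FPKM in MS, and 34.0, 39.6 and 32.2 FPKM in MS + Blebb. Its highest values were those of CTL replicate 1 and MS + Blebb. replicate 2 and its lowest that of CTL replicate 3, so that the CTL libraries alone covered the whole range. The log2 fold change of Araf was -0.0032 in MS versus CTL (standard error 0.15) and 0.038 in MS + Blebb. versus MS.

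Map2k1 encodes MEK1 and Map2k2 encodes MEK2, the kinases that phosphorylate ERK. Map2k1 was expressed at 54.4, 49.4 and 51.8 FPKM in CTL, 53.6, 40.8 and 56.5 FPKM in MS, and 44.8, 50.8 and 49.6 FPKM in MS + Blebb. MS held both its lowest value, in replicate 2, and its highest, in replicate 3. Map2k2 was at 126, 127 and 112 FPKM in CTL, 117, 131 and 109 FPKM in MS, and 154, 122 and 116 FPKM in MS + Blebb. A single library, MS + Blebb. replicate 1, lay above the others. The log2 fold changes in MS versus CTL were -0.058 for Map2k1 and -0.038 for Map2k2, each with a standard error of 0.14, and those in MS + Blebb. versus MS were -0.043 and 0.13.

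Mapk3, the gene of ERK1, was at 146, 123 and 94.0 FPKM in CTL, 104, 110 and 127 FPKM in MS, and 120, 166 and 93.3 FPKM in MS + Blebb. It was highest in MS + Blebb. replicate 2 and CTL replicate 1 and lowest in replicate 3 of the same groups, a ratio of 1.78 between the extremes, and the MS libraries lay inside the range of either other group. The log2 fold change was -0.074 in MS versus CTL (standard error 0.23) and 0.12 in MS + Blebb. versus MS.

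Rasa1 encodes p120 RasGAP, which binds activated receptors through SH2 domains and turns RAS off. It was measured at 0.630, 2.93 and 4.31 FPKM in CTL, 4.82, 2.34 and 1.86 FPKM in MS, and 1.67, 0.791 and 4.35 FPKM in MS + Blebb. The highest library was MS replicate 1 and the lowest CTL replicate 1, 7.65-fold apart, and the groups overlapped, with CTL and MS + Blebb. each reaching from under 1 to over 4 FPKM and no MS library under 1.86 FPKM. Rasa2, a RasGAP of the GAP1 family, was at 0.455, 1.37 and 1.33 FPKM in CTL, 2.15, 0.989 and 0.936 FPKM in MS, and 0.666, 0.577 and 1.57 FPKM in MS + Blebb. Its extremes were the same libraries as those of Rasa1, CTL replicate 1 and MS replicate 1, 4.72-fold apart. In MS versus CTL the log2 fold changes were 0.24 for Rasa1 and 0.20 for Rasa2, with standard errors of 0.52 and 0.29, and in MS + Blebb. versus MS they were -0.37 and -0.28. At these low levels the scale of log2(FPKM + 1) understates fold changes. With a pseudocount of 0.1 the values for Rasa1 were 0.43 and -0.58 and those for Rasa2 were 0.37 and -0.52.

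To ask whether straining changed the RNA of the cascade, the 7 genes were counted against all genes tested. In MS versus CTL, 0 of 7 genes passed an adjusted p of 0.05 (limma with Benjamini-Hochberg adjustment), as did 0.0% of the 10109 genes tested, and 0 of 7 had an unadjusted p under 0.05, against 0.158% of all genes. None of the 7 genes separated the MS libraries from the CTL libraries, beside 3.17% of all genes. With shares this small, 0 of 7 does not set these genes apart from the rest. The fold changes of the 7 genes lay between -0.074 (Mapk3) and 0.24 (Rasa1) on the log2 scale, with a median of -0.0032 beside -0.0018 over all genes tested.

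The comparison of MS + Blebb. with MS addresses the effect of myosin inhibition on strained cells if the third group was strained, as the study names it, and if not, a loss of straining and the inhibitor cannot be told apart in it. Here 0 of 7 genes passed the adjusted threshold (adjusted p between 0.897 and 0.967, limma), beside 0.0% of all genes. Without adjustment, 0 of 7 had a p under 0.05, against 1.25% of all genes, and 0 of 7 genes had groups that did not overlap, against 3.73%. The fold changes lay between -0.37 (Rasa1) and 0.13 (Map2k2), with a median of 0.038 beside -0.0059 over all genes. In MS + Blebb. versus CTL, which shares its libraries with both other comparisons, the log2 fold changes were 0.081 for Hras, 0.034 for Araf, -0.10 for Map2k1, 0.094 for Map2k2, 0.042 for Mapk3, -0.14 for Rasa1 and -0.084 for Rasa2. Again 0 of 7 passed (adjusted p = 1.00, limma), beside 0.0% of all genes. Without adjustment, 0 of 7 had a p under 0.05 against 0.089%, and 0 of 7 did not overlap against 2.08%.

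The 95% intervals of the limma fit give the range of differences that each fit leaves possible. Over the 3 comparisons, the bounds for Hras, Araf, Map2k1 and Map2k2 lay between -0.42 and 0.44 on the log2 scale. For Mapk3 they reached from -0.59 to 0.63, for Rasa2 from -0.95 to 0.86 and for Rasa1 from -1.55 to 1.41. The sequencing depth is unknown, since no common step was found among low FPKM values across libraries, and no counting interval could be given for the low levels of Rasa1 and Rasa2.

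**Figure D2:**
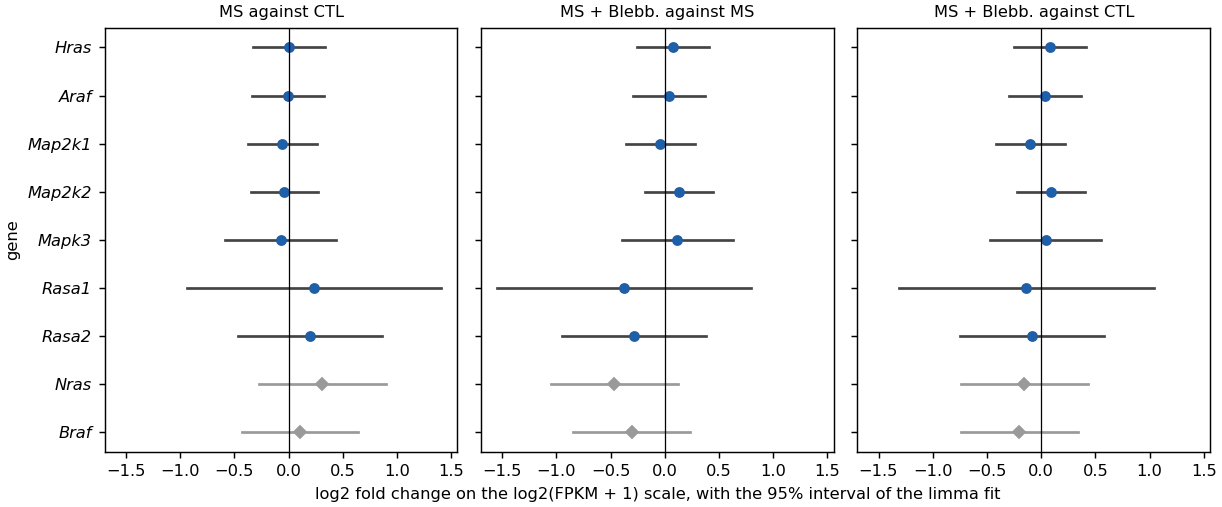
Log2 fold change of the 7 genes (circles) and of Nras and Braf (diamonds) in the 3 comparisons, on the scale of log2(FPKM + 1), with 95% intervals of the limma fit over 9 libraries. Each interval crosses 0, and that of Rasa1 is the widest, from -0.94 to 1.41 in MS versus CTL.

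More of the spread of the 7 genes lay between libraries of a group than between groups. The 3 groups accounted for between 1.52% (Araf) and 15.8% (Map2k2) of the variance of a gene on the log2(FPKM + 1) scale. Over all genes tested, the median SD was 0.245 within groups beside 0.231 over the 9 libraries. A small part between groups was thus not particular to the 7 genes. Hras, Araf, Map2k1 and Map2k2 were among the steadier genes of the cells, with an SD between 0.14 and 0.15 over the 9 libraries, where the median over all genes tested was 0.23. Their SDs lay between the 17.9th and the 21.1st percentile of all genes. Mapk3, with an SD of 0.28, lay at percentile 61.2, Rasa2, with 0.36, at percentile 75.4, and Rasa1, with 0.67, at percentile 96.1.

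The direction of this spread differed between the genes. In CTL replicate 1 and MS + Blebb. replicate 2, a pair of the libraries that stand apart, Mapk3 and Araf had their 2 highest values, whereas Rasa1, Rasa2 and Nras had their 2 lowest. Mapk3 deviated from its mean by 0.30 and 0.48 on the log2 scale in these libraries, and Rasa1 by -1.02 and -0.89. MS replicate 3, the other library that stands apart, did not share this pattern, since Rasa1 deviated by -0.21, Araf by -0.033 and Mapk3 by 0.096 there and Nras was above its mean by 0.26. In MS replicate 1, where the stress genes summed to 398 FPKM, Rasa1, Rasa2, Nras and Braf deviated by 0.81, 0.61, 0.59 and 0.47, their highest values of the series. Map2k2 and Hras had their highest values in MS + Blebb. replicate 1, with deviations of 0.32 and 0.25, and their lowest in MS replicate 3.

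**Figure D3:**
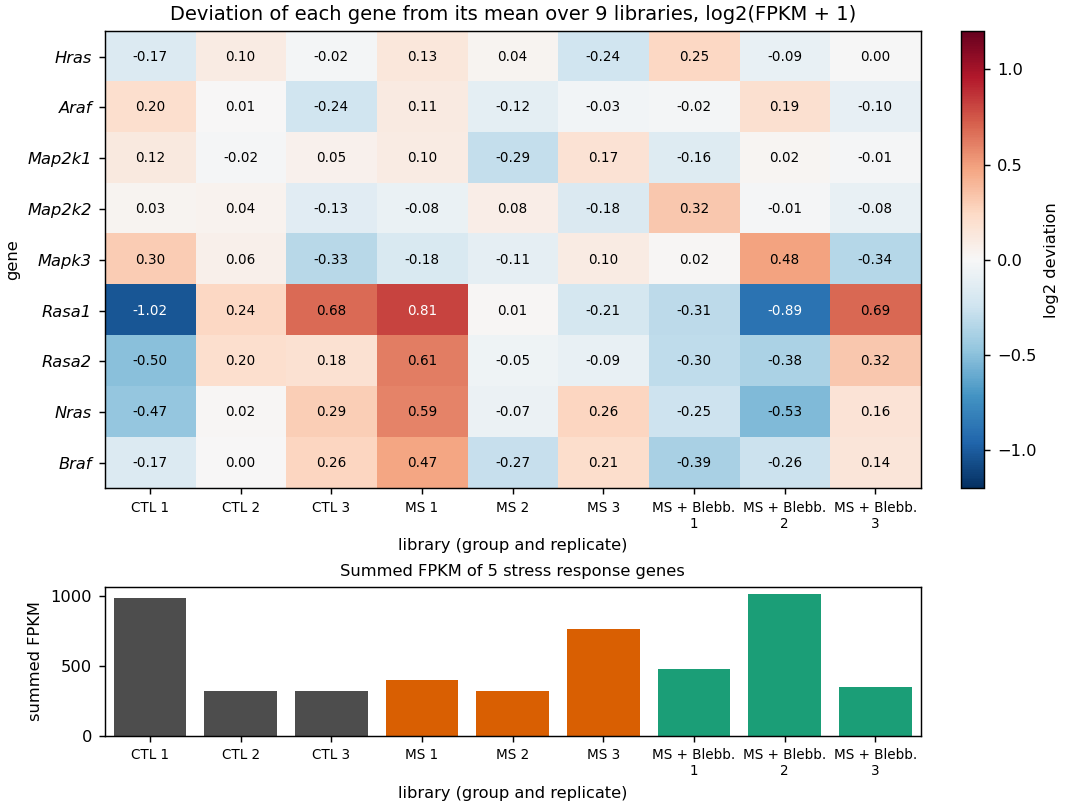
Upper panel, deviation of each gene from its own mean over the 9 libraries on the log2(FPKM + 1) scale (red above, blue below the mean). Lower panel, summed FPKM of the 5 stress response genes, with bars coloured by group. Rasa1 and Rasa2 are lowest in CTL replicate 1 and MS + Blebb. replicate 2, where the stress genes sum to 985 and 1011 FPKM, and highest in MS replicate 1 for both genes.

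The GC content of the transcripts was set beside this pattern. The Rasa1 and Rasa2 transcripts have a GC content of 41.9% and 42.0%, both at or just below percentile 8.22 of the genes tested that have a value, and Nras and Braf are at 42.6%. Map2k1 is at 51.2%, Araf at 55.0%, Hras at 55.2%, Mapk3 at 57.6% and Map2k2 at 60.4%. The libraries whose deviation from the gene means increased most with GC content were CTL replicate 1 (r = 0.464 across genes), MS + Blebb. replicate 1 (r = 0.561) and MS + Blebb. replicate 2 (r = 0.559), and Rasa1 was at 0.630, 1.67 and 0.791 FPKM there. Those in which it decreased most were CTL replicate 3 (r = -0.438), MS replicate 1 (r = -0.650) and MS + Blebb. replicate 3 (r = -0.551), where Rasa1 was at 4.31, 4.82 and 4.35 FPKM. Across the 9 libraries, levels correlated with these r values at -0.94 for Rasa2, -0.92 for Rasa1 and 0.79 for Mapk3. The correlation was 0.66 for Map2k2, 0.49 for Araf, -0.26 for Map2k1 and -0.068 for Hras. With the log2 sum of the 5 stress genes, the correlation was -0.85 for Rasa1, -0.73 for Rasa2 and 0.85 for Mapk3. It was 0.75 for Araf, -0.62 for Hras, 0.49 for Map2k1 and -0.039 for Map2k2. The correlation with the stress genes was thus the larger in size for Mapk3, Araf, Hras and Map2k1. That with the r values of GC content was the larger for Rasa1, Rasa2 and Map2k2, and the cause was not tested. When the GC trend of each library was removed, which was chosen after seeing the data, the SD of Rasa2 went from 0.36 to 0.11, that of Mapk3 from 0.28 to 0.16 and that of Rasa1 from 0.67 to 0.40. The SD of the other 4 genes did not fall, going from 0.15 to 0.22 for Hras, from 0.14 to 0.16 for Map2k1, from 0.15 to 0.17 for Map2k2 and staying at 0.15 for Araf. The log2 fold changes in MS versus CTL were then 0.048 for Rasa1 and 0.0095 for Rasa2, and in MS + Blebb. versus MS they were -0.083 and 0.0077.

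The counts were repeated without the libraries that stand apart. Without all 3 of them, 0 of 7 genes passed in each comparison (limma), with 2 libraries left per group. Since 0 of 7 had passed with all libraries as well, this cannot show what part these libraries had in the counts. In MS versus CTL the log2 fold changes were then 0.044 for Hras, 0.11 for Araf, -0.11 for Map2k1, 0.049 for Map2k2, -0.0068 for Mapk3, -0.050 for Rasa1 and 0.090 for Rasa2. In MS + Blebb. versus MS they were 0.037 for Hras, -0.056 for Araf, 0.011 for Map2k1, 0.12 for Map2k2, -0.020 for Mapk3, -0.22 for Rasa1 and -0.27 for Rasa2. The signs of Araf, Map2k2 and Rasa1 in MS versus CTL, and those of Araf, Map2k1 and Mapk3 in MS + Blebb. versus MS, thus turned when these libraries were left out. For Rasa1 1 library was enough, since the value was -0.26 without CTL replicate 1 and 0.59 without CTL replicate 3.

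Since Rasa1 and Rasa2 moved together between libraries, the 250 bases before the start of each as annotated by RefSeq are shown, with those of Map2k1, a steady gene, for comparison. The sequences are those of RefSeq (GRCm38.p6), which gave a promoter window for 6 of the 7 genes, Mapk3 being the gene with no entry. Capitals mark GGGCGG or its reverse complement CCGCCC, the GC box.
Rasa1, chr13:85289487-85289736, minus strand: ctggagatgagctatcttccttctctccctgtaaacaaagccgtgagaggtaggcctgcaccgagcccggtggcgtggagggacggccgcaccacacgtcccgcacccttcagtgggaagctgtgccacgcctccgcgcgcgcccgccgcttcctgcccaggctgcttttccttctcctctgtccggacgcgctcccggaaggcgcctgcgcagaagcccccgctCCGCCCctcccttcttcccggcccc
Rasa2, chr9:96631504-96631753, minus strand: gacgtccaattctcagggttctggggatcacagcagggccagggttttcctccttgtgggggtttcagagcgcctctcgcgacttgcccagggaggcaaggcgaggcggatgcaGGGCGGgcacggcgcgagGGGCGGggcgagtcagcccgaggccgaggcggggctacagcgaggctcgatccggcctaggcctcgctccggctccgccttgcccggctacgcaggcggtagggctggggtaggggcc
Map2k1, chr9:64253606-64253855, minus strand: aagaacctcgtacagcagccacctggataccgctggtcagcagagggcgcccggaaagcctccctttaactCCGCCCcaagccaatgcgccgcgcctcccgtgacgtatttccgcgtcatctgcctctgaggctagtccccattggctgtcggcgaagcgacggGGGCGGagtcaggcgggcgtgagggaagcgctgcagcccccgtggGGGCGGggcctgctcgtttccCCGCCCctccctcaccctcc
In the whole RefSeq window, which adds the 50 bases after the start to make 300 bases, GGGCGG was found on either strand 2 times in Rasa1, 3 times in Rasa2, 4 times in Map2k1, 3 times in Hras, 2 times in Map2k2 and 0 times in Araf, and 35.9% of 27025 windows of the same length hold it. CCAAT or ATTGG was found 3 times in Araf, 2 times in Map2k1 and once each in Hras and Rasa2, and 37.9% of all windows hold it. The palindrome TGACGTCA was in none of the 6 windows and occurred 2 times in that of Braf, against 1.88% of all windows. The TATAAA motif (TTTATA on the other strand), held by 14.2% of all windows, was in none of them. The windows of Rasa1 and Rasa2 have a GC content of 68.7% and 72.7%, where the median of all windows was 52.7%. Those of Map2k1 and Hras are at 69.0% each, that of Map2k2 at 60.7% and that of Araf at 52.0%. Rasa1 and Rasa2 thus join a GC-rich promoter with a transcript of low GC content, but the GC-rich promoter is not particular to them.

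In each of the 4 pairs compared, 1 paralog held most of the RNA. The share of a gene in the FPKM sum of a pair was used, since a ratio within a library does not depend on the scaling of that library. These shares were compared by the exact two-sided permutation test, which with 3 libraries against 3 allows no p under 0.1, and were adjusted over the 12 tests, where the adjusted p lay between 0.857 and 1 (exact permutation). None of these comparisons could pass the threshold by design. The trend of a library with GC content does not cancel in a share where the GC content of a pair differs. Hras is at 55.2% beside Nras at 42.6%, Araf at 55.0% beside Braf at 42.6%, and Map2k2 at 60.4% beside Map2k1 at 51.2%. The Hras and Araf shares were highest in the 3 libraries whose deviations increased most with GC content. For Map2k2 this was not so, and the cause was not tested.

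Hras made up 74.4% ± 5.31 (SD, n = 9) of the sum of Hras and Nras. The share was 78.9%, 75.8% and 70.1% in CTL replicates 1, 2 and 3, 67.7%, 76.2% and 67.2% in MS, and 80.9%, 80.6% and 72.4% in MS + Blebb. It was lowest in MS replicates 1 and 3, yet MS replicate 2 lay inside the range of both other groups. The mean was 74.9% ± 4.47 (SD, n = 3) in CTL, 70.4% ± 5.03 in MS and 78.0% ± 4.85 in MS + Blebb. The difference of MS from CTL was -4.56 percentage points (exact permutation p = 0.3), and that of MS + Blebb. from MS was 7.59 points (exact permutation p = 0.2). Leaving out CTL replicate 1 gave -2.58 points for the first difference, leaving out MS replicate 3 gave -2.998 and leaving out MS replicate 2 gave -7.46, and both differences had the same sign with each library left out. Without the 3 libraries that stand apart they were -1.02 and 4.72 points, and they were -0.637 and 1.56 points with the GC trend removed.

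Araf outweighed Braf in each library. It held 96.4%, 95.01% and 92.5% of their sum in CTL, 92.8%, 96.0% and 93.7% in MS, and 96.7%, 96.7% and 93.8% in MS + Blebb. The mean share was 94.8% ± 1.69 (SD, n = 9), and the groups overlapped, with differences of -0.454 points in MS versus CTL and 1.61 points in MS + Blebb. versus MS (exact permutation p = 0.8 and 0.2). Braf itself was low, between 1.14 and 2.90 FPKM.

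Map2k2 held 71.0% ± 3.73 (SD, n = 9) of the MEK sum. Its share was 69.9%, 72.0% and 68.4% in CTL, 68.6%, 76.2% and 65.9% in MS, and 77.5%, 70.7% and 70.1% in MS + Blebb. The 2 highest shares, in MS replicate 2 and MS + Blebb. replicate 1, were from the libraries with both the lowest Map2k1 levels and the highest Map2k2 levels. The share differed by 0.128 points in MS versus CTL and by 2.54 points in MS + Blebb. versus MS (exact permutation p = 0.9 and 0.5).

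Rasa1 held 67.9% ± 6.36 (SD, n = 9) of the sum of Rasa1 and Rasa2. Its share was 58.1%, 68.1% and 76.4% in CTL, 69.2%, 70.3% and 66.6% in MS, and 71.5%, 57.8% and 73.5% in MS + Blebb. The MS libraries lay close together, inside the range of both other groups, and the 2 lowest shares were from CTL replicate 1 and MS + Blebb. replicate 2. The differences were 1.14 points in MS versus CTL and -1.09 points in MS + Blebb. versus MS (exact permutation p = 0.8 and 1). Neither gene was the main RasGAP of these cells by RNA level. In the FPKM sum of 9 RasGAP genes, Rasa3 held 58.3%, Dab2ip 17.4%, Rasal3 10.7% and Nf1 6.01%, whereas Rasa1 held 4.18% and Rasa2 1.79%.

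**Figure D4:**
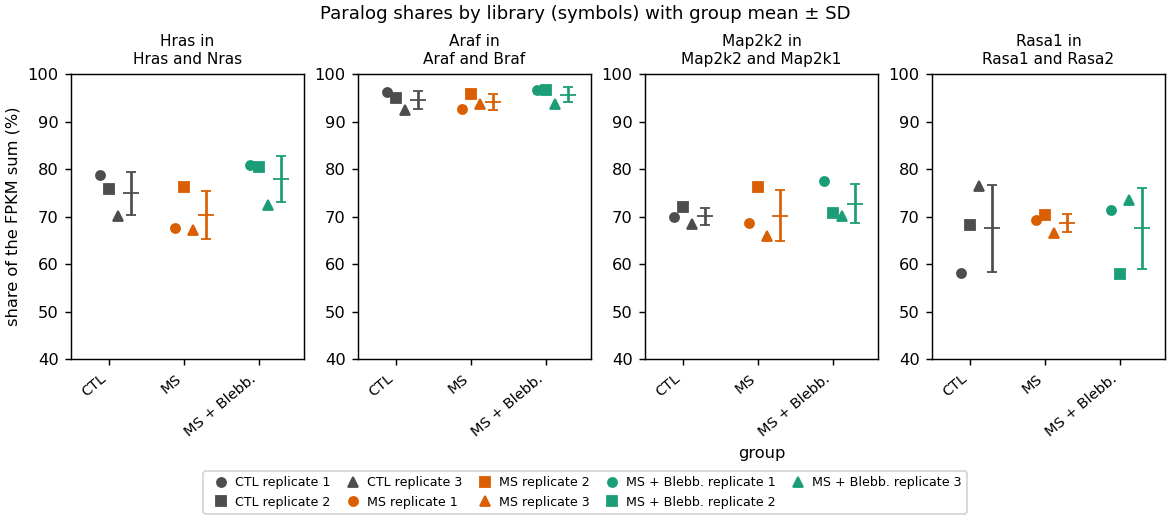
Share of the first gene in the FPKM sum of a paralog pair (percent, axis from 40 to 100), with a symbol for each library and the group mean ± SD (n = 3) to the right of the symbols. Araf holds at least 92.5% of the sum with Braf in each library, and the groups overlap in each pair.

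The genes around the cascade were taken from a list of 58 RAS pathway genes, of which 48 were tested. In MS versus CTL, 0 of the 48 passed in either direction (limma), 19 had a log2 fold change above 0 and 29 below, and the median was -0.023. In MS + Blebb. versus MS, 0 passed, 26 were above 0 and 22 below, with a median of 0.015. In MS + Blebb. versus CTL, 0 passed, 22 were above 0 and 26 below, with a median of -0.0050. The median over all genes tested was -0.0018, -0.0059 and -0.013 in these comparisons, and the number of list genes whose groups did not overlap was 1, 2 and 1 of 48, beside 3.17%, 3.73% and 2.08% of all genes.

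The ends of the list in MS versus CTL were Erbin, a scaffold that binds ERBB2, at 0.37 and Nras at 0.31, and Mknk2, a kinase activated by ERK, at -0.36 and the RAS relative Mras at -0.22. Leaving out CTL replicate 1 gave 0.11 for Nras, leaving out MS replicate 1 gave 0.15, leaving out MS replicate 2 gave 0.48 and leaving out CTL replicate 3 gave 0.49, and removal of the GC trend gave 0.14. In MS + Blebb. versus MS, Mknk2 was at 0.39 and Mras at 0.31, and Rasgrp3, an exchange factor for RAS, was at -0.65 and Erbin at -0.61. Since both comparisons use the MS libraries, their values for a gene are not independent. Erbin was at 0.964, 5.18 and 7.84 FPKM in CTL, 9.67, 3.97 and 3.38 FPKM in MS and 2.33, 1.21 and 7.85 FPKM in MS + Blebb., lowest and highest in the same libraries as Rasa1. In MS + Blebb. versus CTL the ends were Rasal3, a RasGAP gene, at 0.22 and Rasgrp2, an exchange factor, at 0.13, and Rasgrp3 at -0.47 and Lypla1, which removes palmitate from RAS, at -0.38. None of these genes passed the threshold (adjusted p between 0.897 and 1.00, limma).

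By level, 1 gene of the list lay above all of the 7. Pebp1, the gene of the RAF kinase inhibitor protein RKIP, was at 515 FPKM (mean over 9 libraries), whereas Mknk2, at 115 FPKM, was near Mapk3. The adaptors Shc1 and Grb2 were at 62.4 and 39.4 FPKM, close to Map2k1 and Hras. The exchange factors Sos1 and Sos2 were at 2.17 and 3.20 FPKM, as low as Rasa1, and Rasgrp1 was listed at 0 in all libraries. The genes listed for the processing of RAS were at 9.61 FPKM or more on average, Fnta at 30.7, Rce1 at 25.7 and Icmt at 21.0 FPKM among them.

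For each of the 7 genes, the pair of genes with the most similar profile was taken from 6999 genes that averaged 5 FPKM or more, by Pearson's r over the 9 libraries on the log2(FPKM + 1) scale. The points share the scaling and the base composition of the libraries, and the r is given as a description. Rasa1 was most like Eif3j1 (r = 0.993) and Tdp2 (r = 0.993), and Rasa2 was most like Tmx3 (r = 0.988) and Tfam (r = 0.986), and the transcripts of these 4 genes have a GC content between 35.3% and 44.9%. Mapk3 was most like C1qtnf6 (r = 0.990) and Orai3 (r = 0.987), at 56.2% and 54.6%, and Hras was most like Naa10 (r = 0.996) and Myg1 (r = 0.976), at 56.4% and 54.2%. Araf was most like Ndufa6 (r = 0.976) and Gm17018 (r = 0.957), at 53.6% and 51.8%. Map2k1, at 51.2% itself, was most like Rab3gap2 (r = 0.972) and Sytl2 (r = 0.964), at 46.9% and 45.4%. Map2k2, at 60.4% itself, was most like Cyth2 (r = 0.955) and Prelid1 (r = 0.907), at 55.1% and 56.8%.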

How the data were processed

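RNA of B16 cells was extracted with TRIzol and sequenced on an Illumina platform by the authors, who deposited FPKM values for each gene of a library. For CTL replicate 1 the column header gives the sample and no unit, and its values were taken to be FPKM, since its sum of 484093 is near those of the others, between 439939 and 483140. The labels name GRCm38 (mm10). The aligner, the counting program, the annotation and the use of strand are not given in the sources used here. FPKM holds no counts, so precision was judged from replicates, and FPKM is affected by the base composition of a library.

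Values were transformed as log2(FPKM + 1). The 10109 genes that averaged 1 FPKM or more were fitted in limma 3.58.1 under R 4.3.3 (lmFit on 3 groups, eBayes with trend, two-sided, Benjamini-Hochberg adjustment, threshold 0.05). Shares were tested by exact permutation in scipy 1.17.1, and plots were drawn with matplotlib 3.10.9. The fit was tested on simulated data with known changes. GC content was that of the GENCODE M21 transcript with the longest coding sequence, for 9663 genes tested (95.6%).

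The 7 genes and the lists of pathway and marker genes were chosen with earlier results of these data known. The pathway genes named are those with the 2 highest and the 2 lowest log2 fold changes in each comparison. Genes named for their level, and Erbin per library, were chosen after their values were seen. The replicate numbers were checked for pairing. The correlation of the deviations from the group means was between -0.785 and 0.835 for libraries of the same number, so the numbers were not taken as pairs. Alternatives were a pseudocount of 0.1, no minimum or a minimum of 5 FPKM, quantile normalization, median-of-ratios factors, a fit without trend or on the compared groups only, a replicate block and each library left out, and for shares the log2 ratio and, for Hras and Rasa1, the listed family genes. A few pathway genes, and the shares that need them, are not reported here. Removal of the GC trend (loess, span 0.5) and leaving out 3 libraries were chosen after seeing the data.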

Additional observations from a re-analysis of the deposited data

How the results depend on the processing

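The number of the 7 genes past the threshold was 0 in each comparison under all alternatives and with each library left out, as was their number at an unadjusted p under 0.05 (limma). Over all genes tested, the number past the adjusted threshold was 0 under the same alternatives, and leaving out single libraries gave 0 to 1 gene in the comparisons with MS (the 1 gene without MS replicate 2) and 0 in MS + Blebb. versus CTL. The number of pathway genes past the adjusted threshold was 0 throughout. The replicate block, fitted although the numbers were not found to pair the libraries, gave 0 of the 7 genes and 0 of all genes in each comparison, and the number at an unadjusted p under 0.05 was 14, 119 and 10 beside 16, 126 and 9 without the block. Of the log2 fold changes and shares, 46 share and 263 fold change values had the sign first reported under the other alternatives, and 8 and 25 did not. Other minimum levels, a fit without trend or on the compared groups only and the replicate block leave a log2 fold change as it was. The replicate block also leaves a difference in share as it was. The sign under these settings was fixed in advance, so the tally does not measure how stable the signs are. Without the 3 libraries that stand apart, log2 fold changes of the other sign were 0.11 for Araf, 0.049 for Map2k2, -0.050 for Rasa1, -0.032 for Braf and -0.26 for Nf1 in MS versus CTL, -0.056 for Araf, 0.011 for Map2k1 and -0.020 for Mapk3 in MS + Blebb. versus MS, and -0.027 for Mapk3 in MS + Blebb. versus CTL. Without the 3 libraries that stand apart, differences in share of the other sign, in percentage points, were 0.646 for Araf and -2.52 for Rasa1 in MS versus CTL, and 2.75 for Rasa1 in MS + Blebb. versus MS. With the GC trend removed, log2 fold changes of the other sign were 0.092 for Araf, 0.094 for Map2k2, 0.043 for Mapk3, -0.070 for Braf and -0.10 for Nf1 in MS versus CTL, -0.087 for Hras, -0.12 for Araf, -0.080 for Map2k2, -0.076 for Mapk3 and 0.0077 for Rasa2 in MS + Blebb. versus MS, and -0.031 for Araf, -0.033 for Mapk3 and 0.017 for Rasa2 in MS + Blebb. versus CTL. With the GC trend removed, differences in share of the other sign, in percentage points, were 0.684 for Araf in MS versus CTL, -0.254 for Araf in MS + Blebb. versus MS, and -0.720 for Rasa1 in MS + Blebb. versus CTL. With each library left out in turn, log2 fold changes that turned their sign ranged from -0.074 to 0.11 for Hras, -0.12 to 0.10 for Araf, -0.15 to 0.083 for Map2k1, -0.11 to 0.022 for Map2k2, -0.24 to 0.073 for Mapk3, -0.26 to 0.59 for Rasa1, -0.033 to 0.32 for Rasa2, -0.062 to 0.31 for Braf and -0.18 to 0.26 for Nf1 in MS versus CTL, from -0.032 to 0.15 for Hras, -0.046 to 0.10 for Araf, -0.18 to 0.047 for Map2k1 and -0.10 to 0.31 for Mapk3 in MS + Blebb. versus MS, and from -0.016 to 0.15 for Hras, -0.080 to 0.14 for Araf, -0.029 to 0.17 for Map2k2, -0.17 to 0.24 for Mapk3, -0.63 to 0.22 for Rasa1, -0.31 to 0.046 for Rasa2 and -0.36 to 0.019 for Nras in MS + Blebb. versus CTL. Shares that turned their sign ranged, in percentage points, from -1.53 to 0.420 for Araf, -2.87 to 2.30 for Map2k2 and -3.57 to 5.56 for Rasa1 in MS versus CTL, from -4.04 to 3.81 for Rasa1 in MS + Blebb. versus MS, and from -4.66 to 4.96 for Rasa1 in MS + Blebb. versus CTL. With the listed RasGAP genes in the sum, the share of Rasa1 differed by -0.285 points in MS + Blebb. versus CTL, and on the log2 ratio scale by -0.0031. In MS versus CTL, Araf was at 0.00096 with median-of-ratios factors, and at 0.0092 under quantile normalization, where Nf1 was at -0.029. Except for Nf1 at -0.26, none of these changed signs had a log2 fold change over 0.13 in size, apart from leaving out single libraries, and the cause was not tested. With all libraries, Nf1 was at 0.022 in MS versus CTL. Median-of-ratios factors cancel within a share and gave no value of their own there. The number of libraries and the unknown depth limit what can be seen, most of all for Rasa1 and Rasa2.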
